A study of Mus musculus with 16 samples.

Results

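Carbonic anhydrases are zinc enzymes that interconvert carbon dioxide and water with bicarbonate and protons. The genes described here were the 10 members Car2, Car3, Car4, Car8, Car9, Car10, Car11, Car12, Car13 and Car14, chosen by gene symbol out of 19938 genes measured in mouse eye tissue. Each was read by 1 transcript cluster of the array, and all 10 symbols were found in the RefSeq gene table. Expression was measured on 16 arrays, 1 for each tissue of 8 mice. Which arrays shared a mouse was read from treatment and replicate number. The 4 groups, with 4 mice each, were the retinal pigment epithelium of light-exposed mice (RPE light) and of control mice (RPE control), and the neurosensory retina of the same light-exposed mice (NSR light) and control mice (NSR control). All mice were male Balb/cJ aged 10 weeks, an albino strain without melanin in the eye. Light-exposed mice had spent 18 hours under cool white fluorescent light of 10000 lux and were killed 4 hours after the lights were turned off. Control mice had been kept on a 12-hour light-dark cycle, so that bright light and the change of schedule cannot be told apart.

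In the eye, carbonic anhydrases help the retina to dispose of the carbon dioxide and acid made by photoreceptors and help the RPE, the epithelium behind the photoreceptors, to move bicarbonate, ions and water towards the choroid. Cytosolic enzymes work inside cells, and membrane-bound enzymes hold their active site in the space outside. Car8, Car10 and Car11 keep the fold of the family but lack residues that hold the zinc, and are not thought to be active enzymes.

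All values are log2 expression values as deposited, on which 1 unit is a 2-fold difference, and levels of different genes are not set against each other because each cluster has its own probes. Array medians were 6.38 to 6.43 in RPE and 6.52 to 6.57 in NSR, and arrays of the same group correlated at 0.991 to 0.995 on average. How far a signal stood above background is unknown. The dimmest 25% of genes had means below 5.63, and Car4 and Car9 were among them. The median of 8 RPE marker genes was 11.97 to 12.33 in RPE light, 12.49 to 12.52 in RPE control, 5.52 to 5.75 in NSR light and 5.51 to 5.81 in NSR control. The median of 7 rod markers was 7.26 to 8.40 in RPE light, 7.59 to 8.32 in RPE control, 11.49 to 11.76 in NSR light and 12.10 to 12.17 in NSR control, so rod RNA was present in the isolated RPE. Other cell types were present there too. In control mice 8 of 8 fibroblast and pericyte markers were called higher in RPE than in NSR (linear sums 2130 to 4420 against 758 to 780). Of 8 microglia and macrophage markers, 7 were called higher (2800 to 3480 against 660 to 747). Their part in the RPE levels of the members was not tested. Of the RPE arrays, 3 were each highest for a marker list of a neighbouring tissue, and are called below the arrays that stood apart. RPE light 1 was highest for rod markers, but only narrowly (8.40, against 8.32 on control 1 and 8.17 on control 2). RPE control 1 was not counted among the 3. RPE light 2 was highest for corneal and ciliary markers (8.93, against 5.98 to 6.58 on the other RPE arrays), and control 2 for lens markers (7.81, against 6.34 to 6.74).

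Light went with lower mRNA of 3 members in the RPE and of 2 in the NSR, and with more of 1 member in the NSR. Over all genes, 8.53% were called lower with light in the RPE, and 6.24% lower and 8.87% higher in the NSR. Car14 was lower in both tissues, by 2.00-fold in the RPE and 2.34-fold in the NSR. Car12 and Car11 were lower in the RPE, by 1.93-fold and 1.43-fold. Car13 was 1.54-fold higher in the NSR. Car4, a dim gene, was 1.23-fold lower there, a call lost in 9 of 16 alternatives. The tissues differed by far more: in control mice Car12 was 55.0-fold higher and Car2 18.3-fold lower in the RPE than in the NSR. A difference was called at a limma p under 0.05 after Benjamini-Hochberg adjustment over all 19938 genes. In these tissue samples, fewer cells of a type and less RNA per cell cannot be told apart.

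**Figure D1:**
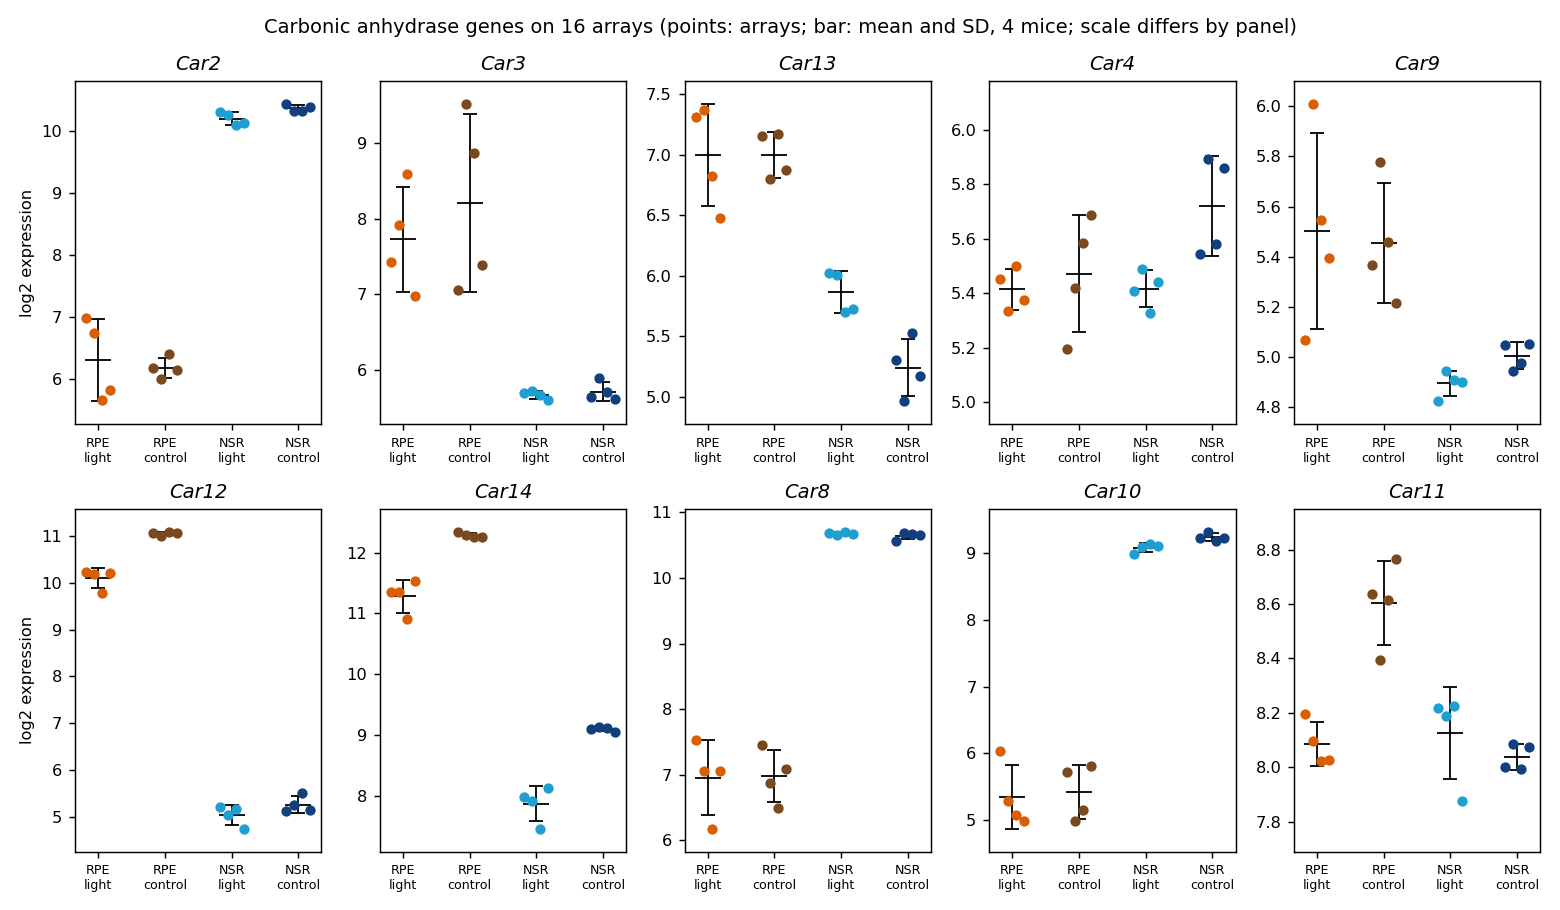
Log2 expression (vertical axis) of each of the 10 members on the 16 arrays, with 1 point per array, bars for the mean and SD of each group of 4, and a scale of its own in each panel. Car14 is highest on the RPE control arrays (12.25 to 12.34) and lower on the light arrays of both tissues, and Car2, Car8 and Car10 are high on the NSR arrays only.

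Between the tissues of control mice all 10 members were called: 6 were higher in RPE control (Car3, Car9, Car11, Car12, Car13 and Car14) and 4 lower (Car2, Car4, Car8 and Car10). Over all genes, 30.8% were called higher and 24.2% lower. The median difference was 0.51 over the members and 0.04 over all genes, and 7 members differed by at least 2-fold. Between the tissues of light-exposed mice 5 members were called higher in the RPE and 3 lower, and Car4 and Car11 were not called. The share of all genes was 34.4% higher and 23.6% lower.

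**Figure D2:**
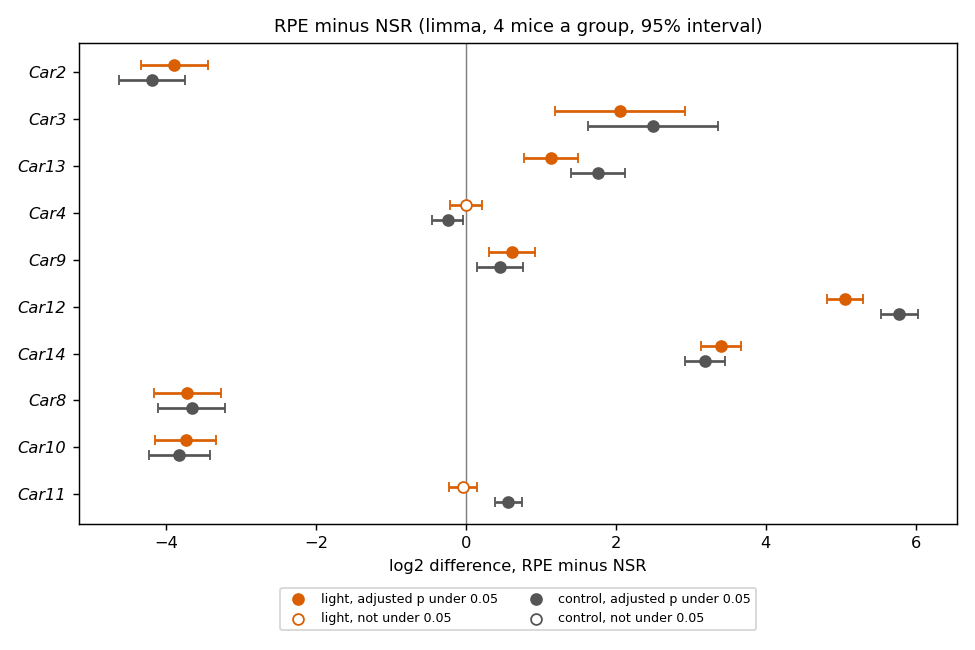
Log2 difference of RPE minus NSR for each member, in light-exposed mice and in control mice, with 95% confidence intervals from the limma fit of all 16 arrays. Car12 has the highest difference (5.05 in light-exposed and 5.78 in control mice) and Car2, Car8 and Car10 lie between -4.19 and -3.66.

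Among the cytosolic enzymes, Car2, the fast isoform known from Müller glia and from some cones and amacrine cells, was a gene of the neurosensory retina. Car2 measured 6.98, 6.74, 5.65 and 5.82 on the RPE light arrays and 6.17, 6.00, 6.39 and 6.13 on the RPE control arrays. On the NSR light arrays it measured 10.30, 10.26, 10.09 and 10.12, and on the NSR control arrays 10.43, 10.31, 10.32 and 10.38. The tissues lay far apart, the RPE light arrays fell on both sides of the RPE control arrays, and every NSR light array lay just under every NSR control array. In control mice Car2 was 18.3-fold lower in the RPE (log2 difference -4.19, SE 0.21, limma adjusted p = 7.02e-12), and in light-exposed mice 14.9-fold lower. With light the NSR difference of -0.17 (95% interval -0.32 to -0.02) was not called (adjusted p = 0.128). In the RPE the difference was 0.12 (interval -0.48 to 0.73, adjusted p = 0.836).

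The Car2 result in the RPE depended on the 3 arrays that stood apart. Car2 was highest on RPE light 1 and 2, the light arrays that were also highest for ganglion and amacrine cell markers. Their list medians were 6.71 and 6.34, against 5.96 and 6.07 on light 3 and 4. The control arrays did not follow this order. RPE control 1 and 2 had list medians of 6.61 and 6.53, above light 2, with Car2 at 6.17 and 6.00. RPE control 3, with the highest control value of Car2 (6.39), had a list median of 6.20. Without RPE light 1, light 2 and control 2, Car2 was lower in RPE light by -0.50 on the log2 scale, with a limma adjusted p of 0.0347. That fit held only RPE light 3 and 4 against RPE control 1, 3 and 4, and control 1 had a rod marker median of 8.32. With 1 array left out at a time the difference ranged from -0.10 to 0.34 and was never called (limma adjusted p from 0.451 to 0.976). The part of those markers in the Car2 level was not tested.

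Car3, an isoform of low activity that is abundant in muscle, fat and liver, was higher in the RPE and varied widely there. Car3 measured 7.42, 7.92, 8.59 and 6.97 in RPE light and 7.06, 9.51, 8.87 and 7.39 in RPE control. In NSR light it measured 5.70, 5.72, 5.67 and 5.60, and in NSR control 5.64, 5.89, 5.71 and 5.62. Its RPE groups overlapped almost completely, while every RPE array lay above every NSR array. In control mice Car3 was 5.63-fold higher in the RPE (log2 difference 2.49, SE 0.41, limma adjusted p = 4.24e-05) and in light-exposed mice 4.15-fold higher. The light differences were -0.48 in the RPE (interval -1.67 to 0.71, adjusted p = 0.638) and -0.04 in the NSR (interval -0.20 to 0.12, adjusted p = 0.747).

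The SD of Car3 was 0.69 in RPE light and 1.17 in RPE control, against 0.05 in NSR light and 0.12 in NSR control, so the interval of its RPE difference was wide. Its highest RPE value, 9.51, came from RPE control 2, the array with the most lens marker RNA, which also had the highest fibroblast and pericyte list median (7.74, against 7.14 to 7.60 on the other RPE arrays). Of 8 skeletal muscle markers, 2 were called higher and 1 lower in RPE control than in NSR control, with a median difference of 0.06. Among the RPE arrays their median was highest on control 3 (6.58), the array with the next highest Car3 value, 8.87. Their summed level, on the linear scale, was highest on control 2 (852, against 842 on control 3). RPE light 3, next in Car3 at 8.59, had the lowest skeletal muscle median (6.15) and the lowest lens median (6.34) of the RPE arrays. Its fibroblast and pericyte median was 7.47. Of 7 adipocyte markers, 1 was called higher and 1 lower in RPE control than in NSR control, with a median difference of -0.11. The list median of the adipocyte markers was highest of the RPE arrays on RPE control 2 (6.49), with 6.30 on control 3 and 6.00 on light 3. Their summed level gave another order: it was 923 on RPE control 2, the lowest of the RPE control arrays, and 1120 on control 3, the highest. Their part in the Car3 values was not tested.

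Car13, a cytosolic isoform found in several tissues, was the only member called higher with light. Car13 measured 6.02, 6.00, 5.70 and 5.73 in NSR light, against 5.30, 4.96, 5.53 and 5.17 in NSR control. All light arrays lay above all control arrays, with a small gap, and the control values were in the range of the dimmest 25% of genes. The difference was 0.62 on the log2 scale (1.54-fold, SE 0.12, limma adjusted p = 0.00366). In the RPE Car13 measured 7.31, 7.37, 6.82 and 6.48 with light and 7.15, 6.80, 7.17 and 6.87 in controls, and the groups overlapped. The RPE difference was -0.00 (interval -0.42 to 0.42, adjusted p = 0.995).

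Car13 was also higher in the RPE than in the NSR, by 2.19-fold in light-exposed mice and 3.38-fold in control mice. Car13, Car1, Car3 and Car2 follow one another in the RefSeq gene order of the GRCm38.p6 assembly, with no other coding gene between them. Their tissue patterns differed: Car13 and Car3 were higher in RPE, Car2 was higher in NSR, and Car1, the isoform of red blood cells, was dim in both and not called (difference -0.04, adjusted p = 0.814).

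Of the membrane-bound enzymes, Car14 and Car12 were high in the RPE and Car9 and Car4 were dim throughout. Car14 is a transmembrane enzyme known in the mouse eye from the RPE surface and from Müller glia, and its loss in mice lowers retinal light responses. Car12 is a transmembrane enzyme of fluid-transporting epithelia. RefSeq promoter windows (build GRCm38.p6, 250 bases before to 50 after the annotated start, given 5′ to 3′ on the strand of the gene) were at hand for 6 of the 10 members, and 1 window of each of the 3 members lower in RPE light is shown. Capitals mark the matches to 5 short motifs searched on both strands: CACGTG, the palindromic E-box, CATGTG, an E-box known from pigment cells, TAATCC, a core of photoreceptor homeodomain proteins, ACGTG or GCGTG, the core of hypoxia response elements, and the CCAAT box. The hypoxia core in its first form also lies within the palindromic E-box.
Car14, chr3:95904636-95904935, minus strand: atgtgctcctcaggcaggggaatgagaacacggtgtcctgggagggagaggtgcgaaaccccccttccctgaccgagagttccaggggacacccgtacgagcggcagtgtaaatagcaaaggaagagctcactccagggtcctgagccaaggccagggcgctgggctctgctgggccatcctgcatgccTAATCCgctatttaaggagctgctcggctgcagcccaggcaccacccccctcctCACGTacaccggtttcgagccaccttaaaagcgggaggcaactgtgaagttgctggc
Car12, chr9:66713436-66713735, plus strand: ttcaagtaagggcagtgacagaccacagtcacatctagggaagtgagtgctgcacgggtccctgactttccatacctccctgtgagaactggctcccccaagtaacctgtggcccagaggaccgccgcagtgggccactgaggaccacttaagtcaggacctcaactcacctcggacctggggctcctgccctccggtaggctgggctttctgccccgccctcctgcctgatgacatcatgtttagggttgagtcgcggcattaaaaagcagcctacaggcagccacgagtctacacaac
Car11, chr7:45699554-45699853, plus strand: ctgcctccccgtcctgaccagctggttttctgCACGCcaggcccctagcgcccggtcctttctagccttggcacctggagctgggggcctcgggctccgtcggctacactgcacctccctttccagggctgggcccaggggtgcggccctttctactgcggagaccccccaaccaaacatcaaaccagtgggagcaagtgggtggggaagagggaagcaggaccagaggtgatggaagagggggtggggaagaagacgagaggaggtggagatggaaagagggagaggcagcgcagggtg
The Car14 window holds TAATCC at bases 190 to 195 and, on the other strand, ACGTG at bases 244 to 248, counted from 1 at its 5′ end. The Car12 window holds none of the 5 motifs, and the Car11 window GCGTG on the other strand at bases 33 to 37. A second Car11 window, chr7:45699717-45700016, overlaps it and holds GCGTG on the other strand at bases 252 to 256. Of 32851 such windows in the table, 7.06% hold TAATCC, 43.8% ACGTG or GCGTG, 7.15% CACGTG, 14.2% CATGTG and 37.4% CCAAT. These matches describe the letters in the windows only.

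Car14 was lower with light on every array of both tissues. It measured 11.35, 11.35, 10.90 and 11.53 in RPE light, against 12.34, 12.29, 12.25 and 12.26 in RPE control. In NSR light it measured 7.99, 7.92, 7.46 and 8.13, against 9.10, 9.13, 9.12 and 9.05 in NSR control. The 4 groups stood in the order RPE control, RPE light, NSR control and NSR light, with no overlap between neighbours, and the control arrays were tightly grouped (SD 0.04 in RPE control and 0.03 in NSR control). The RPE difference was -1.00 (2.00-fold, SE 0.12, interval -1.26 to -0.74, limma adjusted p = 3.1e-04). The NSR difference was -1.22 (2.34-fold, SE 0.12, interval -1.48 to -0.97, adjusted p = 2.12e-05).

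Tested against a change of 1.5-fold rather than 0, Car14 kept its call in the NSR (limma adjusted p = 0.00868) and not in the RPE (adjusted p = 0.177). Between the tissues Car14 was 10.6-fold higher in the RPE of light-exposed mice and 9.10-fold higher in the RPE of control mice. Markers of the cells known to hold Car14 were also lower with light. The summed level of the 8 RPE markers, on the linear scale, was 33800 to 39000 in RPE light and 44300 to 47100 in RPE control, and 4 of the 8 were called lower. The summed level of 8 Müller glia markers was 7520 to 8040 in NSR light and 10100 to 10900 in NSR control, with 5 called lower and 1 higher. A linear sum gives most weight to bright genes such as Glul (11.64 in NSR light and 12.52 in NSR control). The list median was 8.66 to 8.91 in NSR light and 9.37 to 9.48 in NSR control. The Müller glia list is not particular to the NSR: its sums were 17700 to 18600 in RPE light and 20600 to 21400 in RPE control. The RPE markers had summed levels in the NSR of 629 to 668 in NSR light and 1280 to 1520 in NSR control, with 3 of the 8 called lower. Rlbp1 is on both the RPE and the Müller glia list and had the lowest NSR difference of each (-1.53), so their sums are not independent. The RPE list median was 5.52 to 5.75 in NSR light and 5.51 to 5.81 in NSR control. All 7 rod markers measured were lower in NSR light. Their part in the Car14 difference was not tested.

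Car12 was an RPE gene, lower there with light. It measured 10.24, 10.18, 9.78 and 10.21 in RPE light, against 11.06, 10.99, 11.08 and 11.06 in RPE control. The light arrays all lay below the control arrays, RPE light 3 lowest. The difference was -0.95 on the log2 scale (1.93-fold, SE 0.10, interval -1.17 to -0.72, limma adjusted p = 1.75e-04). The test against a change of 1.5-fold did not call it (adjusted p = 0.162), and the RPE marker sums given for Car14 moved the same way.

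In the NSR Car12 was dim, at 5.22, 5.04, 5.18 and 4.75 with light and 5.13, 5.26, 5.52 and 5.15 in controls. These groups overlapped, and the difference of -0.22 (interval -0.47 to 0.03) was not called (limma adjusted p = 0.24). Car12 was 33.2-fold higher in the RPE of light-exposed mice and 55.0-fold higher in the RPE of control mice (adjusted p = 2.56e-16 and 3.51e-17), folds that are uncertain because the NSR values lie among the dimmest 25% of genes.

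Car9, a transmembrane enzyme of some stomach and duct epithelia that hypoxia induces in human tumour cells, stayed dim. It measured 5.07, 6.01, 5.55 and 5.39 in RPE light and 5.37, 5.78, 5.46 and 5.21 in RPE control, and these groups overlapped. The NSR values were 4.82, 4.95, 4.91 and 4.90 with light and 5.05, 4.94, 4.98 and 5.05 in controls, which overlapped as well. Car9 was 1.52-fold higher in the RPE in light-exposed mice (limma adjusted p = 0.00158) and 1.37-fold higher in control mice (adjusted p = 0.014). Without RPE control 2 the control difference was 0.34 and was not called (adjusted p = 0.0588), but without all 3 RPE arrays that stood apart it was also 0.34 and was called (adjusted p = 9.2e-04). With light it differed by 0.05 in the RPE (interval -0.37 to 0.46) and -0.11 in the NSR (interval -0.24 to 0.02), neither called.

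Car4, an enzyme tethered by a lipid anchor and known from the choriocapillaris, the capillary bed behind the RPE, was dim as well. It measured 5.45, 5.33, 5.50 and 5.37 in RPE light and 5.20, 5.42, 5.58 and 5.69 in RPE control, and these groups overlapped. In the NSR it measured 5.41, 5.49, 5.33 and 5.44 with light, all below the control values of 5.54, 5.89, 5.58 and 5.86. The NSR difference was -0.30 (1.23-fold, SE 0.09, limma adjusted p = 0.04), and leaving out 1 array at a time moved the adjusted p between 0.0229 and 0.109 and ended the call in 6 of 8 cases.

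Leaving the dimmest 25% of genes out removed Car4 from the test. Car4 was called 1.19-fold lower in the RPE of control mice (limma adjusted p = 0.0442), although the tissues overlapped, and lost that call in 9 of the 17 alternatives that tested it. In light-exposed mice the tissues differed by -0.00 (interval -0.21 to 0.21). Of 8 endothelial markers, 4 were called higher and 1 lower in RPE control than in NSR control, with a median difference of 0.15. Their summed level, on the linear scale, was 2300 to 2870 in RPE light, 2160 to 2830 in RPE control, 1110 to 1180 in NSR light and 1140 to 1180 in NSR control. Ramp2 (10.82 in RPE control and 6.06 in NSR control) and Kdr (6.68 in RPE control and 9.26 in NSR control) went opposite ways. Their part in the Car4 values was not tested.

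Of the proteins of the family without known enzyme activity, Car8 and Car10 were genes of the neurosensory retina. Car8, which in cerebellar Purkinje cells binds the receptor that releases calcium from internal stores, measured 7.53, 7.06, 6.18 and 7.06 in RPE light and 7.46, 6.87, 6.50 and 7.09 in RPE control. In the NSR it measured 10.68, 10.65, 10.70 and 10.67 with light and 10.57, 10.69, 10.67 and 10.65 in controls. The tissues lay far apart and the light and control arrays of each tissue overlapped. Car8 was 13.2-fold lower in the RPE of light-exposed mice and 12.7-fold lower in the RPE of control mice (limma adjusted p = 5.11e-11 and 5.07e-11).

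The light difference of Car8 in the NSR was 0.03 (interval -0.09 to 0.16, limma adjusted p = 0.747), with an SD of 0.02 in NSR light and 0.05 in NSR control. In the RPE it was -0.02 (interval -0.64 to 0.59, adjusted p = 0.977), with an SD of 0.57 in RPE light and 0.40 in RPE control. The wider RPE spread leaves room there for a change that the NSR interval does not.

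Car10, a secreted partner of the synaptic protein neurexin, measured 6.03, 5.28, 5.07 and 4.99 in RPE light and 5.72, 4.98, 5.15 and 5.80 in RPE control. In the NSR it measured 8.99, 9.09, 9.15 and 9.10 with light and 9.23, 9.32, 9.18 and 9.24 in controls. Every NSR light array lay under every NSR control array, while the RPE groups overlapped. Car10 was 13.4-fold lower in the RPE of light-exposed mice and 14.2-fold lower in the RPE of control mice (limma adjusted p = 1.41e-11 and 7.94e-12), folds that are uncertain because its RPE means lie among the dimmest 25% of genes. The NSR difference with light was -0.16 (interval -0.30 to -0.02) and was not called (adjusted p = 0.12), and the RPE difference was -0.07 (interval -0.63 to 0.48).

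**Figure D3:**
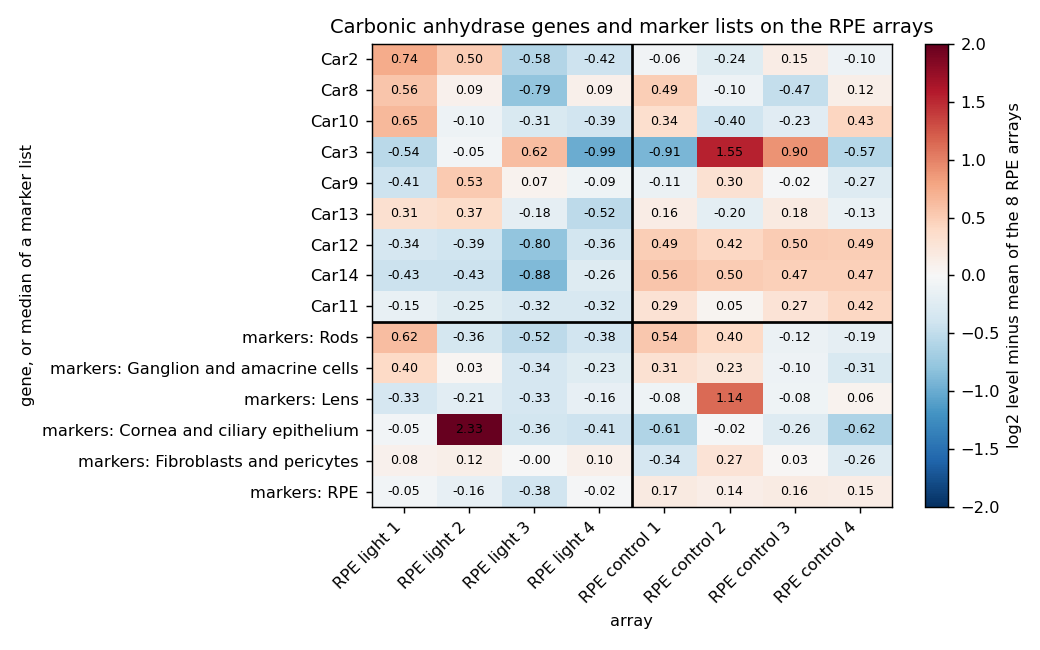
Log2 level minus the mean of the 8 RPE arrays (colour and printed value) for 9 members and for the medians of 6 marker lists, with the light arrays left of the control arrays. Car2 deviates by 0.74 on RPE light 1 and 0.50 on RPE light 2, and by -0.58 and -0.42 on RPE light 3 and 4.

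Car11, a secreted relative of Car10 that is abundant in brain, was lower with light in the RPE, where it had stood above the NSR in control mice. It measured 8.20, 8.10, 8.02 and 8.03 in RPE light, against 8.64, 8.39, 8.61 and 8.77 in RPE control. The light arrays all lay below the control arrays. The difference was -0.52 (1.43-fold, SE 0.09, interval -0.71 to -0.33, limma adjusted p = 0.00214), and it was not called against a change of 1.5-fold.

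In the NSR Car11 measured 8.22, 8.19, 8.23 and 7.87 with light and 8.00, 8.09, 7.99 and 8.07 in controls. NSR light 4 lay below all control arrays and the other 3 above them, so the groups overlapped. The difference of 0.09 (interval -0.10 to 0.27) was not called (limma adjusted p = 0.539). RPE exceeded NSR by 1.48-fold in control mice (adjusted p = 1.83e-05), whereas in light-exposed mice the difference was -0.04 (interval -0.22 to 0.14, adjusted p = 0.708).

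Across the NSR, light thus gave 1 member called higher and 2 lower, with 7 not called. Over all genes, 8.87% were called higher and 6.24% lower. The groups were fully apart for 1 member that was higher (Car13) and 4 that were lower (Car2, Car4, Car10 and Car14), against 10.7% of all genes for higher and 9.97% for lower. The median light difference was -0.13 over the members and -0.02 over all genes.

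In the RPE 3 members were called lower with light, none was called higher by limma (0 at an unadjusted p under 0.05) and 7 were not called. Over all genes, 9.08% were called higher and 8.53% lower. The same 3 members, Car11, Car12 and Car14, were those whose groups did not overlap, against 10.9% of all genes for lower. The median difference was -0.07 over the members and -0.01 over all genes. Without the 3 RPE arrays that stood apart the limma adjusted p was 0.00712 for Car11, 0.0052 for Car12 and 0.0114 for Car14, and the differences were -0.65, -1.07 and -1.07.

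**Figure D4:**
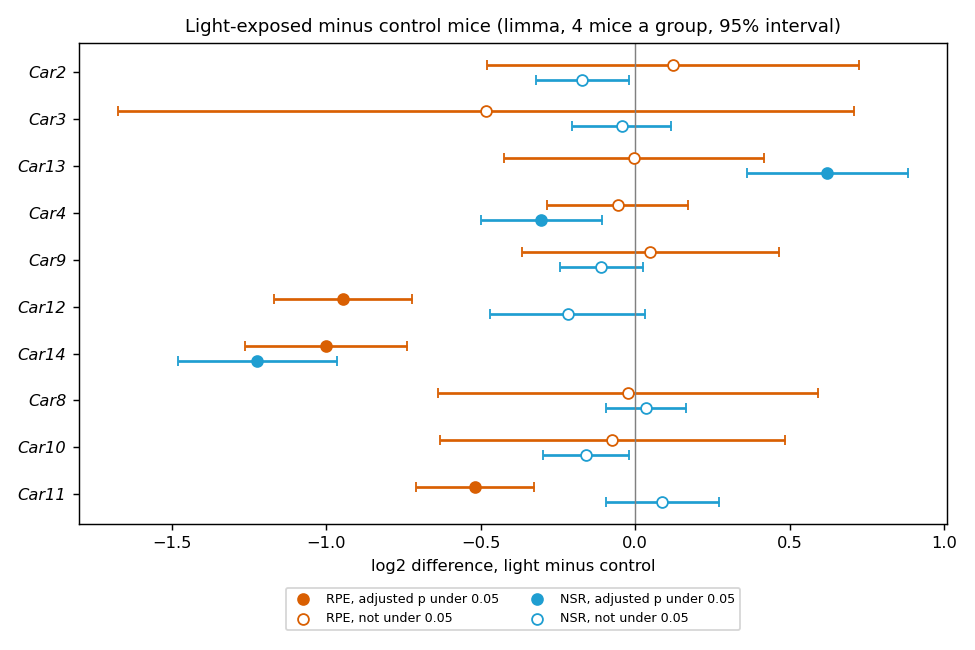
Log2 difference of light minus control for each member in the RPE and in the NSR, with 95% confidence intervals from limma. Car14 lies near -1 in both tissues, Car12 and Car11 lie below 0 in the RPE, and Car13 lies above 0 in the NSR.

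The difference between the light responses of the 2 tissues, RPE minus NSR, was tested directly. Of the members 2 were called lower and none higher (0 at an unadjusted p under 0.05), against 8.05% and 5.16% of all genes. Car12 responded by -0.95 in the RPE and -0.22 in the NSR, a difference of -0.73 (SE 0.16, interval -1.07 to -0.39, limma adjusted p = 0.00517), although its NSR values were too dim for a fall there to be well measured. Car11 responded by -0.52 in the RPE and 0.09 in the NSR, a difference of -0.61 (SE 0.12, interval -0.86 to -0.35, adjusted p = 0.00244). For Car14 the responses differed by 0.22 (interval -0.16 to 0.60), which was not called (adjusted p = 0.5).

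The Car13 responses, -0.00 in the RPE and 0.62 in the NSR, differed by -0.63 (interval -1.13 to -0.12) and were not called (limma adjusted p = 0.105). With the mouse as a block, its tissues being matched by treatment and replicate number, the adjusted p was 0.0112. With 1 array left out at a time it ranged from 0.0417 to 0.198 and passed in 1 of 16 cases, without RPE light 2. It was 0.00352 without the 3 RPE arrays that stood apart, a set chosen after seeing the data, where the difference was -1.04. Of those arrays, RPE light 1 and 2 had the highest RPE light values of Car13 (7.31 and 7.37). RPE control 2 had the lowest RPE control value (6.80). Leaving them out therefore lowers the RPE response of Car13 by itself, so that fit cannot decide whether the tissues differ.

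The 6 other genes of the family listed here were all measured, and none was called with light in the NSR by limma (0 at an unadjusted p under 0.05). Car5b, a mitochondrial enzyme, measured 9.23, 9.24, 9.51 and 9.39 in RPE light, all above the 9.01, 8.96, 8.98 and 8.94 of RPE control. That difference of 0.37 (1.29-fold, limma adjusted p = 0.00651) was opposite in direction to those of Car11, Car12 and Car14. Car5b was also higher in the RPE than in the NSR, by 2.86-fold in light-exposed and 2.15-fold in control mice. Car6, a secreted enzyme of saliva and tears, measured 6.94, 8.47, 8.49 and 8.14 in RPE light and 7.22, 7.77, 8.90 and 7.17 in RPE control, groups that overlapped. It was 4.95-fold higher in the RPE of light-exposed mice and 4.81-fold higher in the RPE of control mice. Car15 was 1.40-fold lower in the RPE of light-exposed mice and 1.53-fold lower in the RPE of control mice, and Car1, Car5a and Car7 were called in no comparison. Ptprz1 and Ptprg, receptor phosphatases with a carbonic anhydrase-like domain, were not called with light in either tissue, and Ptprz1, a glial gene, was 6.12-fold lower in RPE light than in NSR light and 5.60-fold lower in RPE control than in NSR control.

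Bicarbonate transporters carry one of the ions that carbonic anhydrases make. Of 14 measured, 1 was called higher and 2 lower with light in the RPE, and 1 lower in the NSR. The shares of all genes were 9.08% higher and 8.53% lower in the RPE, and 6.24% lower in the NSR. The median differences were 0.02 in the RPE and -0.01 in the NSR, close to those of all genes. Slc4a5, a sodium bicarbonate cotransporter, averaged 9.97 ± 0.26 in RPE light and 11.14 ± 0.06 in RPE control (SD, n = 4), 2.25-fold lower (limma adjusted p = 1.31e-04). Slc4a4, another sodium bicarbonate cotransporter, known from the apical RPE, was 1.32-fold lower (adjusted p = 0.00339). Slc26a7, an anion exchanger, had light differences of 0.39 in the RPE and -0.33 in the NSR, the second lost in 5 of 8 cases with 1 array left out, and the 2 responses differed (adjusted p = 1.97e-04), though its NSR values lay among the dimmest 25% of genes or just above. Like Car12, Slc26a7 and Slc4a5 were far higher in the RPE of control mice, by 59.9-fold and 20.8-fold.

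Proton, lactate and anion transporters, which move the acid that the retina makes, went both ways. Of 25 measured, 2 were called higher and 5 lower in the RPE, and 3 higher and 5 lower in the NSR, with medians of -0.06 in both. The shares of all genes were 9.08% higher and 8.53% lower in the RPE, and 8.87% higher and 6.24% lower in the NSR. In the NSR the monocarboxylate transporter gene Slc16a1 averaged 8.43 ± 0.21 with light and 9.46 ± 0.12 in controls (SD, n = 4), 2.05-fold lower (limma adjusted p = 2.85e-05), and its relative Slc16a6 was 1.75-fold lower. In the RPE the sodium-proton exchanger genes Slc9a9 and Slc9a7 were 1.85-fold lower and 1.68-fold higher. Of 23 hypoxia-induced genes, 3 were called higher and 3 lower in the RPE, and 5 higher and 3 lower in the NSR, with medians of 0.00 and 0.01. In the RPE Pfkfb3, an enzyme that drives glycolysis, was 2.59-fold higher and Vegfa, the endothelial growth factor, 1.85-fold lower. Car9, a member known for its induction by hypoxia, was not among the calls.

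**Figure D5:**
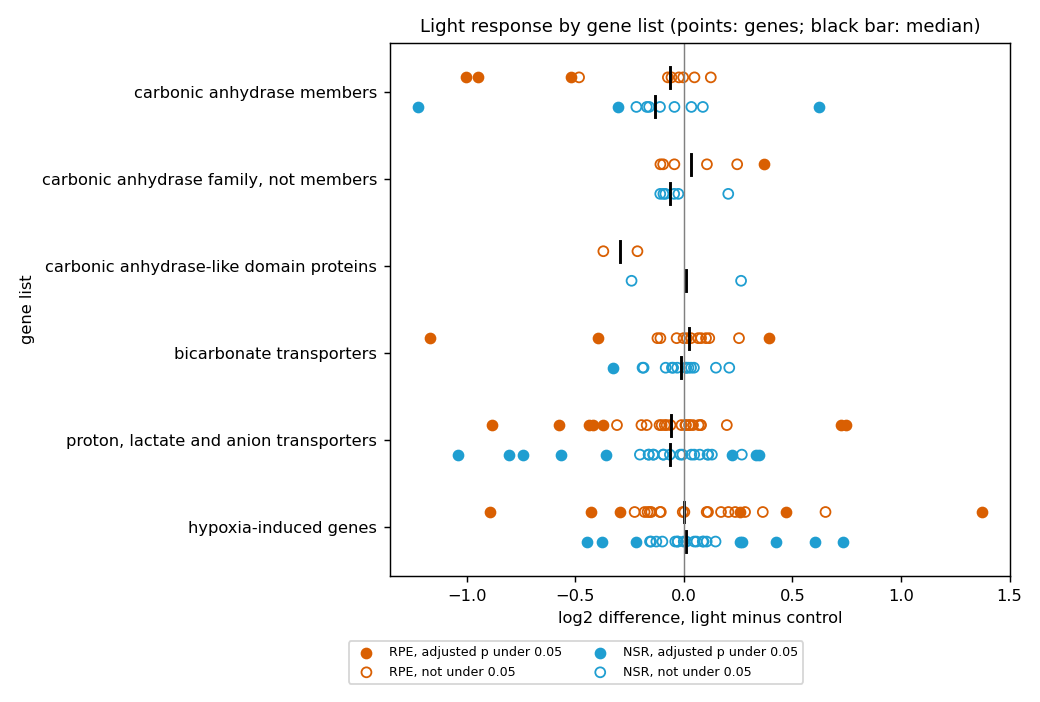
Log2 difference of light minus control for each measured gene of the lists around the carbonic anhydrases, in the RPE and in the NSR, with filled points for called genes and a black bar at each median. Slc4a5 (-1.17) is the lowest bicarbonate transporter in the RPE and Slc16a1 (-1.04) the lowest of the proton, lactate and anion transporters in the NSR.

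The genes whose pattern was most like a member's were found by Pearson correlation over the 16 arrays after the mean of each tissue was subtracted. Members and genes with predicted or clone names were left out of the search. These values describe likeness only, and the arrays of a group share their treatment. Car14 was most like Vldlr, a lipoprotein receptor (r = 0.989), and Gnat2, the cone transducin subunit (r = 0.987). Gnat2 averaged 8.75 ± 0.15 in RPE light, 9.65 ± 0.08 in RPE control, 9.84 ± 0.18 in NSR light and 10.96 ± 0.02 in NSR control (SD, n = 4), lower with light in both tissues as Car14 was. Car12 was most like Dhrs3, a retinaldehyde reductase (r = 0.968), and Enpp5 (r = 0.951). Dhrs3 averaged 10.43 ± 0.25 in RPE light, 11.23 ± 0.07 in RPE control, 10.10 ± 0.10 in NSR light and 10.39 ± 0.06 in NSR control. Car11 was most like Elovl6, a fatty acid elongase (r = 0.952), and Ubr2, a ubiquitin ligase (r = 0.929). For Car2, Fam171b reached 0.905, and for Car3, Npy, a neuropeptide gene, reached 0.909, with r = 0.938 within the RPE and -0.22 within the NSR. No gene searched reached 0.9 for Car4, Car8, Car9, Car10 or Car13.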

How the data were processed

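RNA of both tissues was hybridised to Affymetrix Mouse Gene 1.0 ST arrays, which have 1 colour. The deposited table holds 1 log2 value per array for each of 35556 transcript clusters. Per the submitters' processing notes, the authors used RMA and Partek 6.6. The log2 scale was read from the values (2.20 to 13.84). Probe filters, centring and batches were not given in the sources used here. Among 120 pairs of arrays 0 were identical, and the smallest mean difference was 0.131.

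The platform annotation gave 1 symbol to 21789 clusters, several to 1621 and none to 12146. Each gene took its brightest cluster with 1 symbol, which gave 19938 genes, 999 of them with over 1 cluster. Groups came from the labels, and mice were assigned by treatment and replicate number. R 4.3.3 with limma 3.58.1 (lmFit and eBayes, plain prior) compared light with control on the 8 arrays of a tissue, and the tissues and the difference of responses on all 16 arrays. Figures were drawn in Python 3.11.15, with matplotlib 3.10.9 and pandas 2.3.3. The fits were tested on simulated data. P-values measure the spread between the arrays of a group, in which differences of mouse, dissection and array cannot be told apart. The number of arrays limits their precision. The main fits of all 16 arrays took the arrays as independent, and the mouse as a block was an alternative.

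Both tissues of a mouse were matched by treatment and by the replicate number in the sample titles. Deviations of the 2 tissues of a mouse had correlations of -0.011 to 0.053 in the 8 mice. The members and lists were chosen with earlier results of these data known. The named genes were all members, the 2 called genes with the largest change per list and comparison, of which the text prints a part, and the 2 genes most like each member, printed where r was at least 0.9. Per-array values of Car5b and Car6, and Car15, Car1, Car5a and Car7, were added after their values were seen.

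Alternatives were array centring, quantile normalization, leaving out the dimmest 25% of genes, a trended robust prior, array weights, the mean of clusters, a test against 1.5-fold, blocks, other sets of arrays and leaving out each array. Leaving out the 3 RPE arrays together was chosen after seeing the data. Clusters with several symbols or none were not used here.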

Additional observations from a re-analysis of the deposited data

Results flagged for a closer look

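On 2 of the 40 groups of 4 arrays that the members form, 1 array lay far from the others, by a gap divided by the range of the group. Chance flags about 1 in 20 such groups. Car12 on RPE light 3 measured 9.78, against 10.18 to 10.24 on the other RPE light arrays, a gap of 0.876 of the range. Car11 on NSR light 4 measured 7.87, against 8.19 to 8.23 on the other NSR light arrays, a gap of 0.893 of the range.

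The light responses of 2 members differed between the tissues by the limma test of the difference, RPE minus NSR. The difference was -0.73 on the log2 scale for Car12 and -0.61 for Car11.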

How the results depend on the processing

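Among member values recomputed under the alternatives, 880 kept direction and call, 28 lost the call, 5 gained it and 37 changed sign. The RPE light calls of Car12 and Car14 were lost in the test against 1.5-fold alone. That test left 222 genes called with light in the RPE (119 higher, 103 lower, 0 members lower), 288 in the NSR (232 higher, 56 lower, 0 members higher and 1 lower), 267 for the difference of responses (67 higher, 200 lower, 0 members lower), 3853 between the tissues of light-exposed mice (2041 higher, 1812 lower) and 4101 between those of control mice (2327 higher, 1774 lower). The number of members lower in NSR light was 1 with the dimmest 25% of genes left out and 1 with all 16 arrays fitted, and ranged from 1 to 2 over single arrays left out. Without the 3 RPE arrays that stood apart, 2056 genes were called with light in the RPE (998 higher, 1058 lower), from fewer arrays.

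Signs changed for differences that had not been called with all arrays, and not all of them were small. Without the 3 arrays Car2 in the RPE went from 0.12 to -0.50, which was called (limma adjusted p = 0.0347). Car3 in the RPE went from -0.48 to 0.0076. The differences of responses were then -0.33 for Car2, 0.051 for Car3 and -0.37 for Car10, and Car4 between light-exposed tissues was 0.020. Car4 there was 0.029 with arrays centred. Array weights gave 0.037 for Car8 and 0.0092 for Car13 in the RPE and 0.0021 for the Car8 difference of responses. With single arrays left out, RPE light differences ranged from -0.10 to 0.34 for Car2, -0.15 to 0.015 for Car4, -0.21 to 0.24 for Car8, -0.12 to 0.19 for Car9, -0.30 to 0.056 for Car10 and -0.13 to 0.17 for Car13. Car3 in NSR light ranged from -0.075 to 0.015, and Car4 between light-exposed tissues from -0.030 to 0.026. The differences of responses ranged from -0.25 to 0.20 for Car8, -0.0097 to 0.30 for Car9 and -0.14 to 0.22 for Car10. The causes were not tested. With the mouse as a replicate block, the adjusted p for the difference of responses was 0.00612 for Car11 and 0.0156 for Car12, and the Car13 call was the one member call that changed. The replicate number as a replicate block, for different animals, gave adjusted p = 0.00157 for Car14 and Car12 in the RPE. Background height is unknown, which limits values of Car4 and Car9, of Car10 in the RPE, of Car12 in the NSR and of Car13 in NSR control.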
